A study of Saccharomyces cerevisiae with 12 samples.

Results

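A set of 10 genes of fatty acid synthesis and activation were followed across 4 yeast strains by 5PSeq, a method that reads the intermediates of mRNA degradation through their 5′ phosphate. The 10 genes, *ACC1*, *FAS1*, *FAS2*, *OLE1*, *ELO1*, *PHS1*, *TSC13*, *FAA1*, *FAA4* and *ACB1*, were matched by symbol to a table of 6302 genes, and all were found. The 4 strains were the wild type BY4741 (*MATa his3*Δ1 *leu2*Δ0 *ura3*Δ0 *met15*Δ0), *hel2*∆ (*hel2*∆::*LEU2*), *ncs2*∆*elp6*∆ (*ncs2*Δ::*HIS3MX elp6*Δ::*URA3*) and the triple mutant *ncs2*∆*elp6*∆*hel2*∆, each with 3 replicates grown in rich medium (YPD) at 30°C. The labels list *met15*Δ0 for the wild type and not for the mutants. Ncs2 and Elp6 are needed for modifications of the wobble uridine (U34) of several tRNAs, and Hel2 is the ubiquitin ligase that marks collided ribosomes for ribosome-associated quality control (RQC). The comparisons ask how the degradation fragments of transcripts change when U34 modification, RQC or both are lost. The values are numbers of fragments, not corrected for mRNA level, so that a change in the amount of a transcript and a change in its degradation cannot be told apart.

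Fatty acids are built in the yeast cytosol from acetyl-CoA. Acetyl-CoA carboxylase, Acc1, makes malonyl-CoA in the committed step, and the fatty acid synthase, a large complex of the Fas1 (beta) and Fas2 (alpha) subunits, uses it to extend the chain to palmitoyl- and stearoyl-CoA. Ole1 introduces the double bond of the unsaturated fatty acids, elongases of the endoplasmic reticulum lengthen chains, and acyl-CoA synthetases such as Faa1 and Faa4 activate free fatty acids by joining them to coenzyme A.

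Reads per library ranged from 104202 to 415323 with a median of 215412, and 3 reads corresponded to 6.55 to 34.1 counts-per-million (CPM). In *ncs2*∆*elp6*∆ and *ncs2*∆*elp6*∆*hel2*∆, *NCS2* had 0 and 2 reads over 3 libraries, against 18 in the wild type, and *ELP6* had 4 and 10 reads, against 20. *HEL2* had 8 reads in *hel2*∆ and 5 in the triple mutant, against 48 in the wild type and 89 in *ncs2*∆*elp6*∆. Of the marker genes, *LEU2* had 10 reads in *hel2*∆ and 7 in the triple mutant, against 1 in each of the other strains, while *URA3* had 0 to 1 reads in every strain and so gave no check of *elp6*Δ::*URA3*. *MET17*, the gene also known as *MET15*, had 28 reads over the 3 wild-type libraries (8 to 12 each), against 38, 39 and 62 in *hel2*∆, *ncs2*∆*elp6*∆ and the triple mutant. Scaled for depth, its means were 59.5 CPM in the wild type and 87.6, 47.1 and 79.9 CPM in these mutants. Reads of this gene in the wild type go against the *met15*Δ0 of its label, and no comparison called it. CPM values given here are scaled by TMM, the trimmed mean of M-values. A gene was called when its p-value from the edgeR quasi-likelihood test, adjusted by the Benjamini-Hochberg method over the 3378 genes that passed the count filter, was under 0.05. Of the 10 genes, 8 passed the filter, and *PHS1* and *ACB1* had too few reads. Separate cultures are not stated in the labels, so the p-values measure the spread between these samples, which may be technical.

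The 10 genes took between 0.400% and 0.729% of the reads of a library. The mean share was 0.584% ± 0.127 (SD, n = 3) for wild-type libraries and 0.609% ± 0.0383 for *hel2*∆. It was lower in *ncs2*∆*elp6*∆, at 0.469% ± 0.0669, and stood at 0.520% ± 0.0341 for the triple mutant. The *ncs2*∆*elp6*∆ libraries (0.400% to 0.533%) overlapped with those of the wild type (0.488% to 0.729%). *ACC1*, *FAS1* and *FAS2* alone held 70.1% to 90.1% of the reads of the 10. They are also the longest of the set, with annotated coding lengths of 6702 nt, 6156 nt and 5664 nt, while the other 7 genes span 264 nt (*ACB1*) to 2103 nt (*FAA1*). Per kb of coding length, *ACC1* (325 CPM per kb), *FAS1* (315) and *FAS2* (273) in the wild type still lay above *FAA4* (205), *OLE1* (121), *ACB1* (86.8) and *ELO1* (76.0). *PHS1* (38.7), *TSC13* (36.6) and *FAA1* (33.7) were lowest. The mean levels of *ACC1*, *FAS1* and *FAS2* differed by less than their standard deviations of 90.6, 123 and 74.1 CPM per kb, and those of *PHS1*, *TSC13* and *FAA1* by less than theirs of 15.2, 13.5 and 9.06.

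**Figure D1:**
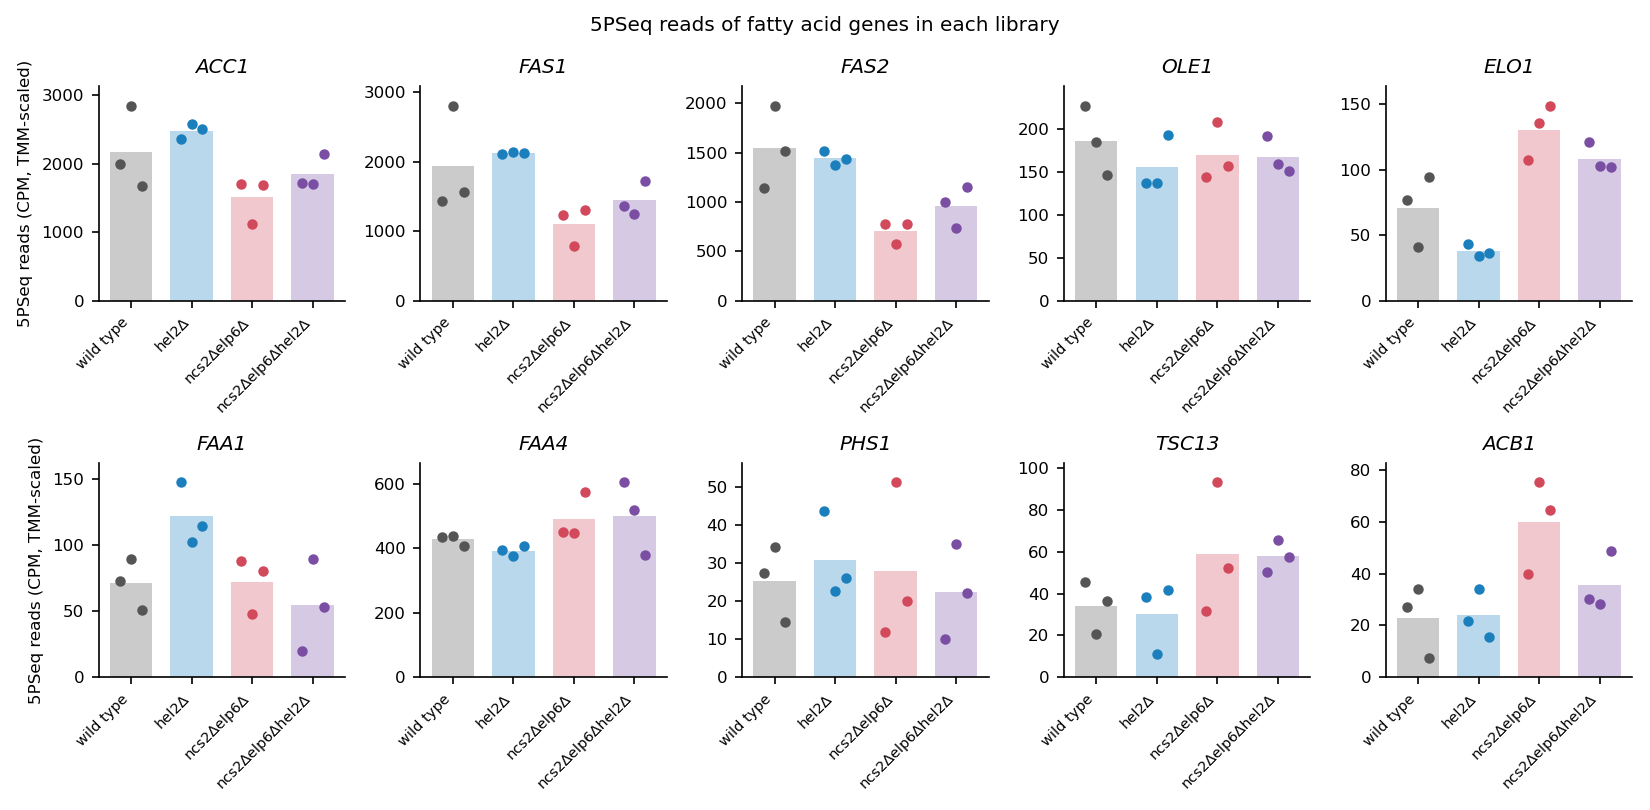
5PSeq reads of each of the 10 genes in CPM (TMM-scaled) on linear axes from 0, with 1 point per library, from left to right replicates 1 to 3, and a bar at the mean of the 3 libraries of a strain. The 3 *ncs2*∆*elp6*∆ libraries lie below all wild-type libraries for *FAS1* and *FAS2* and above them for *ELO1*, *FAA4* and *ACB1*. *FAA4* was not called. How many of all genes separate in this way was not counted, and 30.1% of all tested genes were called in this comparison.

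In *ncs2*∆*elp6*∆ against the wild type, reads of both fatty acid synthase genes fell and reads of the elongase gene *ELO1* rose. *FAS2* was 2.17-fold lower, *FAS1* was 1.74-fold lower and *ELO1* was 1.83-fold higher, while the other 5 tested genes were not called. Across all genes 30.1% were called in this comparison, 16.7% lower and 13.4% higher, so that 3 of 8 is close to the background. The median log2 fold change of the 8 genes was −0.08, beside 0.04 for all genes tested. *FAS2* alone of the 3 was called in all 13 alternative analyses.

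*FAS2* (YPL231W, chromosome XVI, 108652 to 114315, sacCer3) encodes the alpha subunit, which carries the ketoacyl synthase and the acyl carrier domain. It had 1139, 1978 and 1522 CPM in the 3 wild-type libraries, and 1518, 1375 and 1431 CPM in *hel2*∆. It had 776, 572 and 781 CPM in *ncs2*∆*elp6*∆ and 998, 742 and 1150 CPM in the triple mutant. All 3 *ncs2*∆*elp6*∆ libraries lay below every wild-type and *hel2*∆ library, and those of the triple mutant overlapped with the wild type at a single value, 1150 against 1139 CPM. The log2 fold change of *ncs2*∆*elp6*∆ against the wild type was −1.12 ± 0.23 (SE, adjusted p = 5.61e-04). With each of the 6 libraries left out in turn it ranged from −1.25 to −0.91 and stayed called. In the triple mutant the log2 fold change against the wild type was −0.69 ± 0.23 (adjusted p = 0.0552) and that against *hel2*∆ −0.59 ± 0.23 (adjusted p = 0.0865), neither of which passed the threshold.

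*FAS1* (YKL182W, chromosome XI, 100671 to 106826), the gene of the beta subunit with the acetyl- and malonyl-transferase, dehydratase and enoyl reductase activities, had 1438, 2812 and 1565 CPM in the wild type. The *hel2*∆ libraries had 2118, 2147 and 2123 CPM and those of *ncs2*∆*elp6*∆ 1238, 789 and 1308 CPM. The triple mutant had 1372, 1257 and 1725 CPM. Wild-type replicate 2 stood well above the other wild-type libraries, and *ncs2*∆*elp6*∆ replicate 2 well below its group. The log2 fold change of *ncs2*∆*elp6*∆ against the wild type was −0.80 ± 0.26 (adjusted p = 0.0192). It was −0.44 (adjusted p = 0.227) without wild-type replicate 2 and −0.54 (adjusted p = 0.146) without *ncs2*∆*elp6*∆ replicate 2, so that the call rested on these libraries. It was also lost when libraries were scaled by their totals alone (−0.53, adjusted p = 0.0689).

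*ACC1* (YNR016C, chromosome XIV, 654673 to 661374) had 1992, 2853 and 1682 CPM in the wild type and 2364, 2579 and 2509 CPM in *hel2*∆. The values were 1712, 1129 and 1699 CPM in *ncs2*∆*elp6*∆ and 1725, 1700 and 2150 CPM in the triple mutant. The *ncs2*∆*elp6*∆ libraries overlapped with the wild type, and the log2 fold change of −0.53 ± 0.24 was not called (adjusted p = 0.0960). Wild-type replicate 2 was the highest of the 12 libraries and *ncs2*∆*elp6*∆ replicate 2 the lowest for *ACC1*, *FAS1* and *FAS2* alike.

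The ratio of *FAS1* to *FAS2* reads, each per kb of coding length, compares the subunits of the one complex. It was 1.14 ± 0.18 (SD, n = 3) for wild-type libraries and 1.36 ± 0.08 for *hel2*∆. For *ncs2*∆*elp6*∆ it was 1.43 ± 0.14, and for the triple mutant 1.40 ± 0.15. The wild-type libraries ranged from 0.946 to 1.31 and those of *ncs2*∆*elp6*∆ from 1.27 to 1.54, so that the groups overlapped.

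**Figure D2:**
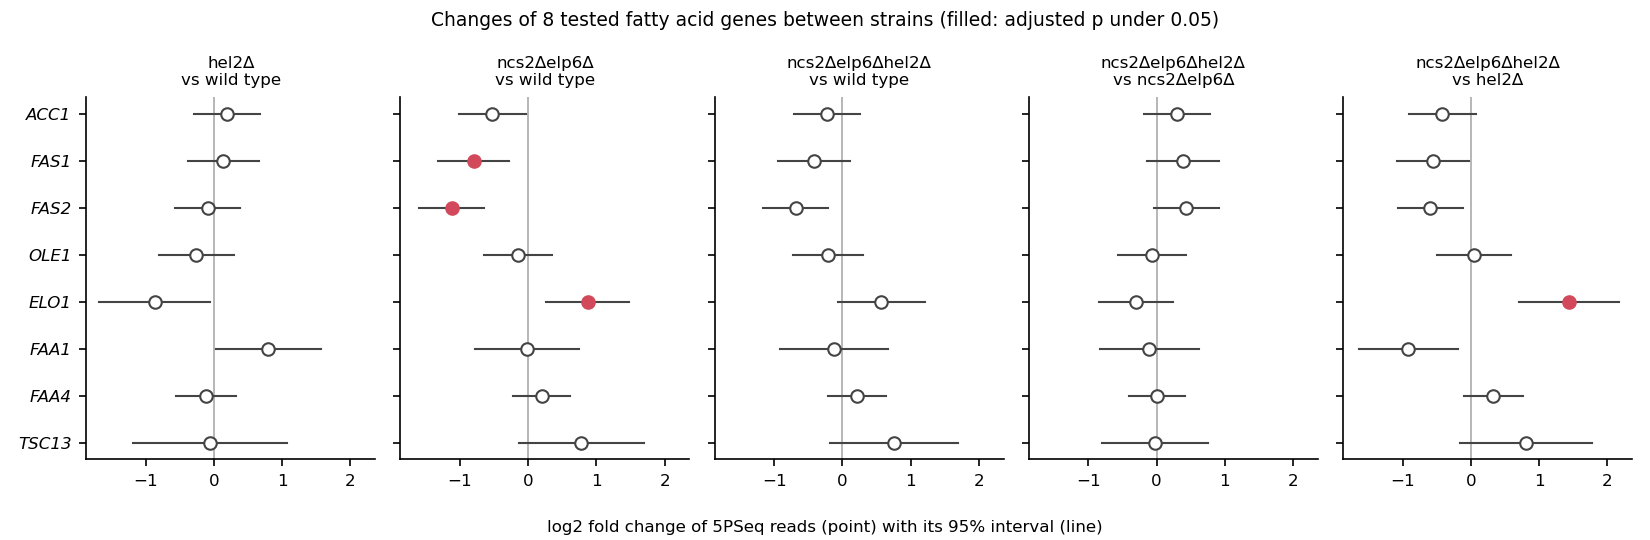
Log2 fold change of 5PSeq reads of the 8 tested genes (rows) in the 5 pairwise comparisons of strains (panels), with points at the fitted value, lines for its 95% interval, and filled points for an adjusted p under 0.05. *FAS1*, *FAS2* and *ELO1* were called in *ncs2*∆*elp6*∆ against the wild type, and *ELO1* in the triple mutant against *hel2*∆.

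Changes in *ncs2*∆*elp6*∆ moved with gene length across all genes, and this bears on *ACC1*, *FAS1* and *FAS2*. The median log2 fold change against the wild type was 0.40 for 710 genes of up to 1000 nt, 0.10 for 1469 genes of 1000 to 2000 nt, −0.06 for 724 genes of 2000 to 3000 nt, −0.18 for 383 genes of 3000 to 5000 nt and −0.48 for 74 genes over 5000 nt. Of the 74 longest genes 29 were called lower (39.2%) and 1 was called higher. Among these 74, *FAS2* ranked 11th, *FAS1* 23rd and *ACC1* 33rd from the lowest change. The same medians ran from 0.23 to −0.24 in the triple mutant against the wild type, from 0.31 to −0.26 in the triple mutant against *hel2*∆, and from −0.02 to 0.01 in *hel2*∆ against the wild type. The trend also differed between libraries of 1 strain. The median deviation of the genes over 5000 nt from their mean log2 CPM over all libraries was 0.07, 0.36 and 0.09 in the 3 wild-type libraries, and −0.10, −0.41 and −0.23 in those of *ncs2*∆*elp6*∆. The libraries with the highest and lowest values for *FAS2*, *FAS1* and *ACC1*, replicate 2 of each of these strains, were also those with the most extreme long-gene medians.

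When the trend on length was taken out of each library, an analysis chosen after the data were examined, *FAS2* remained lower in *ncs2*∆*elp6*∆ (log2 fold change −0.67, adjusted p = 0.0141). *FAS1* was no longer called (−0.32, adjusted p = 0.297), and the value for *ACC1* was −0.02 (adjusted p = 0.947). *ELO1*, one of the short genes, stayed higher (0.78, adjusted p = 0.0411). What gives rise to the length trend was not tested.

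**Figure D3:**
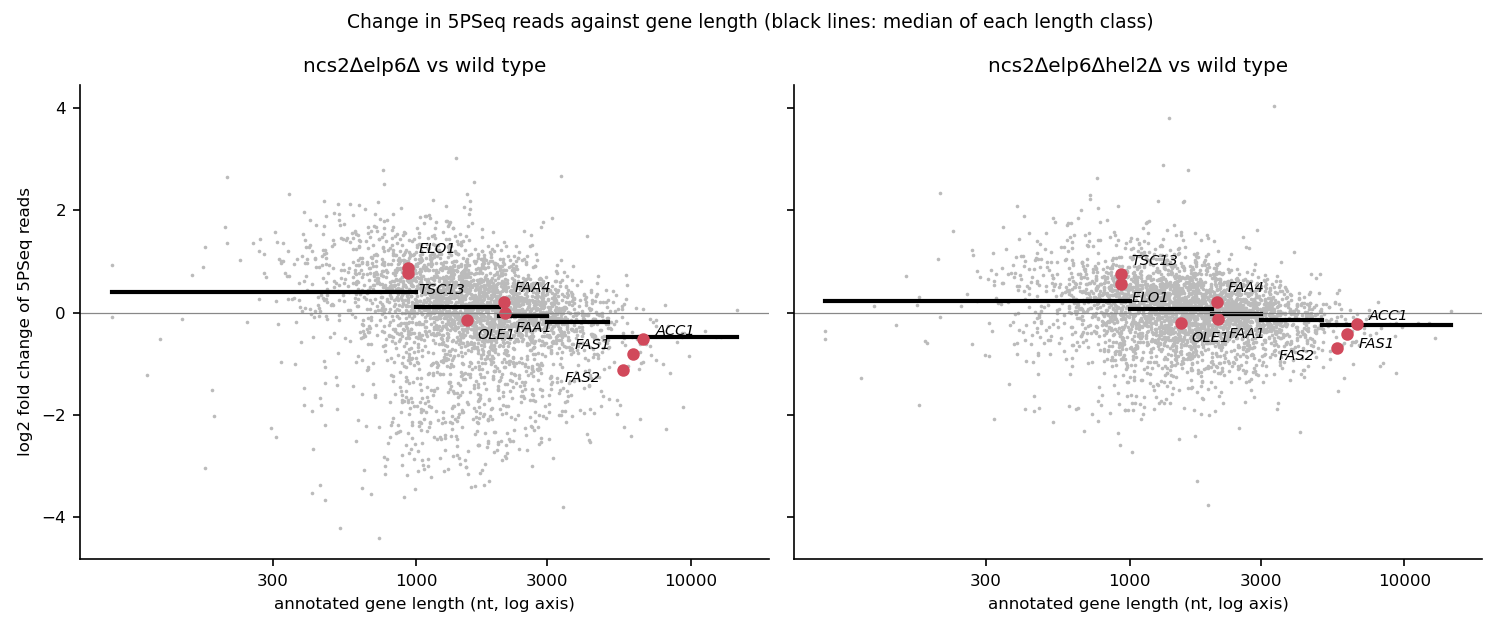
Log2 fold change of 5PSeq reads against annotated gene length in nt (log axis) for the tested genes with a known length (grey points), with the 8 tested fatty acid genes in red and black lines at the median of each of 5 length classes. In *ncs2*∆*elp6*∆ against the wild type the medians fall from 0.40 in the shortest to −0.48 in the longest class, and *FAS2* lies below its class median by more than *FAS1* or *ACC1*.

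*OLE1* (YGL055W, chromosome VII, 398628 to 400160), which encodes the sole stearoyl-CoA Δ9 desaturase of yeast, had 227, 185 and 146 CPM in the wild type and 136, 136 and 193 CPM in *hel2*∆. It had 143, 208 and 157 CPM in *ncs2*∆*elp6*∆ and 192, 159 and 150 CPM in the triple mutant. The 4 strains overlapped, and no comparison called the gene. The 95% interval of its log2 fold change in *ncs2*∆*elp6*∆ against the wild type ran from −0.65 to 0.36, which leaves room for a change of either sign within these bounds.

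Chain elongation was represented by *ELO1*, the elongase of medium-chain acyl-CoA, by *PHS1*, the dehydratase, and by *TSC13*, the enoyl reductase of the elongation cycle. *ELO1* (YJL196C, chromosome X, 67850 to 68782) had 77.1, 41.1 and 94.7 CPM in the wild type and 43.7, 34.1 and 36.4 CPM in *hel2*∆. In *ncs2*∆*elp6*∆ it had 107, 135 and 149 CPM, and in the triple mutant 121, 103 and 102 CPM. Every library of the strains lacking U34 modification lay above every library of the strains that have it. The counts behind these values were small, 3 to 17 reads per library in the wild type and *hel2*∆ and 12 to 47 in the other strains. *ELO1* and *TSC13* passed the count filter only through the strains lacking U34 modification, where their reads were higher. In a fit of the wild type and *hel2*∆ alone, 6 genes of the set passed, without these. The separation of the *ELO1* libraries is therefore not independent support for a rise. The log2 fold change was 0.87 ± 0.29 (SE, adjusted p = 0.0267) in *ncs2*∆*elp6*∆ against the wild type and 1.44 ± 0.36 (adjusted p = 0.00971) in the triple mutant against *hel2*∆. In the latter comparison 14.6% of all genes were called, 6.42% higher, and *ELO1* was the only called gene of the 8, whose median was −0.19 beside 0.05 for all genes. Its call there held in all 13 alternatives (1.31 to 1.62). Against the wild type, the call in *ncs2*∆*elp6*∆ was lost without wild-type replicate 2 (0.62, adjusted p = 0.155), without *ncs2*∆*elp6*∆ replicate 3 (0.78, adjusted p = 0.0858) and with DESeq2 (0.90, adjusted p = 0.130). With 710 genes of its length class at a median of 0.40, *ELO1* ranked 516th from the lowest change in that class.

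*TSC13* (YDL015C, chromosome IV, 426002 to 426934) had 45.4, 20.5 and 36.4 CPM in wild-type libraries and 38.2, 11.4 and 41.6 CPM in those of *hel2*∆. The *ncs2*∆*elp6*∆ libraries had 31.9, 93.3 and 52.3 CPM and those of the triple mutant 50.4, 65.5 and 57.5 CPM. The *ncs2*∆*elp6*∆ libraries overlapped with the wild type and the 3 triple-mutant libraries lay above all wild-type libraries. The log2 fold changes against the wild type were 0.78 ± 0.45 and 0.76 ± 0.46, and neither was called (adjusted p = 0.195 and 0.318). *PHS1* (YJL097W, chromosome X, 245591 to 246244) had 6, 5 and 2 reads in wild-type libraries and 8, 2 and 5 in those of *hel2*∆. It had 3, 17 and 5 reads in *ncs2*∆*elp6*∆ and 1, 16 and 5 in the triple mutant. It did not pass the count filter. With no filter it was not called in any comparison, with a log2 fold change of 0.21 in *ncs2*∆*elp6*∆ against the wild type (adjusted p = 0.855).

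The acyl-CoA synthetases Faa1 and Faa4 both activate long-chain fatty acids. *FAA4* (YMR246W, chromosome XIII, 759807 to 761891) was the more highly read of the pair, with 436, 438 and 408 CPM in wild-type libraries and 393, 375 and 406 CPM in those of *hel2*∆. In *ncs2*∆*elp6*∆ it had 450, 449 and 576 CPM, and the triple mutant had 605, 517 and 380 CPM. The 3 *ncs2*∆*elp6*∆ libraries lay above all wild-type libraries, by a log2 fold change of 0.20 ± 0.20 that was not called (adjusted p = 0.497, 95% interval −0.22 to 0.61). *FAA1* (YOR317W, chromosome XV, 909343 to 911445) had 72.6, 89.0 and 51.0 CPM in wild-type libraries and 147, 102 and 115 CPM in those of *hel2*∆. It had 87.6, 48.2 and 80.5 CPM in *ncs2*∆*elp6*∆ and 20.2, 89.5 and 53.1 CPM with all 3 genes deleted. Its 3 *hel2*∆ libraries lay above all 9 others, while the libraries of the other strains overlapped.

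For *FAA1* the log2 fold change in *hel2*∆ against the wild type was 0.79 ± 0.37, which did not pass after adjustment (adjusted p = 0.980). The value in the triple mutant against *hel2*∆ was −0.92 ± 0.35 (adjusted p = 0.0828). It was called in 1 of 13 alternatives, without triple-mutant replicate 2 (−1.58, adjusted p = 0.0345), which leaves libraries with 2 and 12 reads of the gene. Per kb, *FAA4* had 6.36 ± 1.57 times the reads of *FAA1* in wild-type libraries (SD, n = 3) and 3.32 ± 0.55 times in those of *hel2*∆. The ratio was 7.26 ± 2.11 for *ncs2*∆*elp6*∆. In the triple mutant it was 30.3, 5.83 and 7.23, and the first of these values, from replicate 1, rests on 2 reads of *FAA1*.

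*ACB1* (YGR037C, chromosome VII, 559731 to 559994) encodes the acyl-CoA binding protein, which carries the newly made acyl-CoA esters. It had 6, 5 and 1 reads in wild-type libraries (22.9 ± 14.0 CPM, SD, n = 3) and 4, 3 and 3 in those of *hel2*∆ (23.8 ± 9.40 CPM). The *ncs2*∆*elp6*∆ libraries had 10, 25 and 16 reads (59.8 ± 18.2 CPM) and the triple mutant 3, 13 and 11 (35.8 ± 11.2 CPM). The *ncs2*∆*elp6*∆ values lay above all others except those of the triple mutant, whose highest library had 48.7 CPM against a lowest of 39.8 CPM. With no filter on low counts the log2 fold change in *ncs2*∆*elp6*∆ against the wild type was 1.36 and was called by edgeR (adjusted p = 0.0282). DESeq2 gave 1.38 and did not call it (adjusted p = 0.144). With the filter kept, *ACB1* passed it when 1 wild-type library or *ncs2*∆*elp6*∆ replicate 1 was left out, with 9 genes of the set tested. Of these fits, it was called without wild-type replicate 2 and without *ncs2*∆*elp6*∆ replicate 1. Without *ncs2*∆*elp6*∆ replicate 2 or 3 it was not tested (8 genes of the set passed). The gene thus passed through the strain where its reads were highest, so these calls are not independent support. At 264 nt it is the shortest of the 10.

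With *HEL2* alone deleted, few genes of any kind were called. In *hel2*∆ against the wild type 3 of 3378 genes were called (0.0888%), and 141 had an unadjusted p under 0.05. *HEL2* itself was 1 of the 3 (log2 fold change −2.41, adjusted p = 0.0401). With 3 libraries per strain, so few calls do not show that the other genes were unchanged. None of the 8 fatty acid genes was called by edgeR, and 2 of them, *ELO1* and *FAA1*, had an unadjusted p under 0.05. *ELO1* was lower with a log2 fold change of −0.87 ± 0.39 (adjusted p = 0.980), and the highest *hel2*∆ library, at 43.7 CPM, overlapped with the lowest wild-type library, at 41.1 CPM. For *ACC1*, *FAS1* and *FAS2* the log2 fold changes were 0.19, 0.14 and −0.09, with 95% intervals of −0.30 to 0.68, −0.39 to 0.66 and −0.56 to 0.38.

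The triple mutant lay between *ncs2*∆*elp6*∆ and the wild type for the mean CPM of *ACC1*, *FAS1*, *FAS2*, *ELO1*, *TSC13* and *ACB1*. For *OLE1*, *FAA1*, *FAA4* and *PHS1* its mean lay outside that range. Against the wild type 11.1% of all genes and none of the 8 fatty acid genes were called by edgeR. An unadjusted p under 0.05 was found for 1 of the 8, *FAS2*, beside 866 of all 3378 genes. *FAS2* was called in 3 of 13 alternatives, DESeq2 among them. Against *ncs2*∆*elp6*∆ 5.68% of all genes were called and none of the 8. None of the 8 had an unadjusted p under 0.05, beside 642 of all 3378 genes. The log2 fold changes there were 0.43 ± 0.23 for *FAS2*, 0.39 ± 0.26 for *FAS1*, 0.30 ± 0.24 for *ACC1* and −0.30 ± 0.26 for *ELO1* (adjusted p = 0.323, 0.454, 0.544 and 0.588). The interaction, which tests whether *HEL2* deletion acted differently with and without U34 modification, called 1 of 3378 genes (0.0296%) and none of the 8. Its unadjusted p was under 0.05 for none of the 8, beside 328 of all genes. Its value for *FAS2* was 0.53 ± 0.33 (adjusted p = 0.686). The lower *FAS2* and *FAS1* reads of *ncs2*∆*elp6*∆ were thus not shown to depend on *HEL2*, nor to be independent of it.

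**Figure D4:**
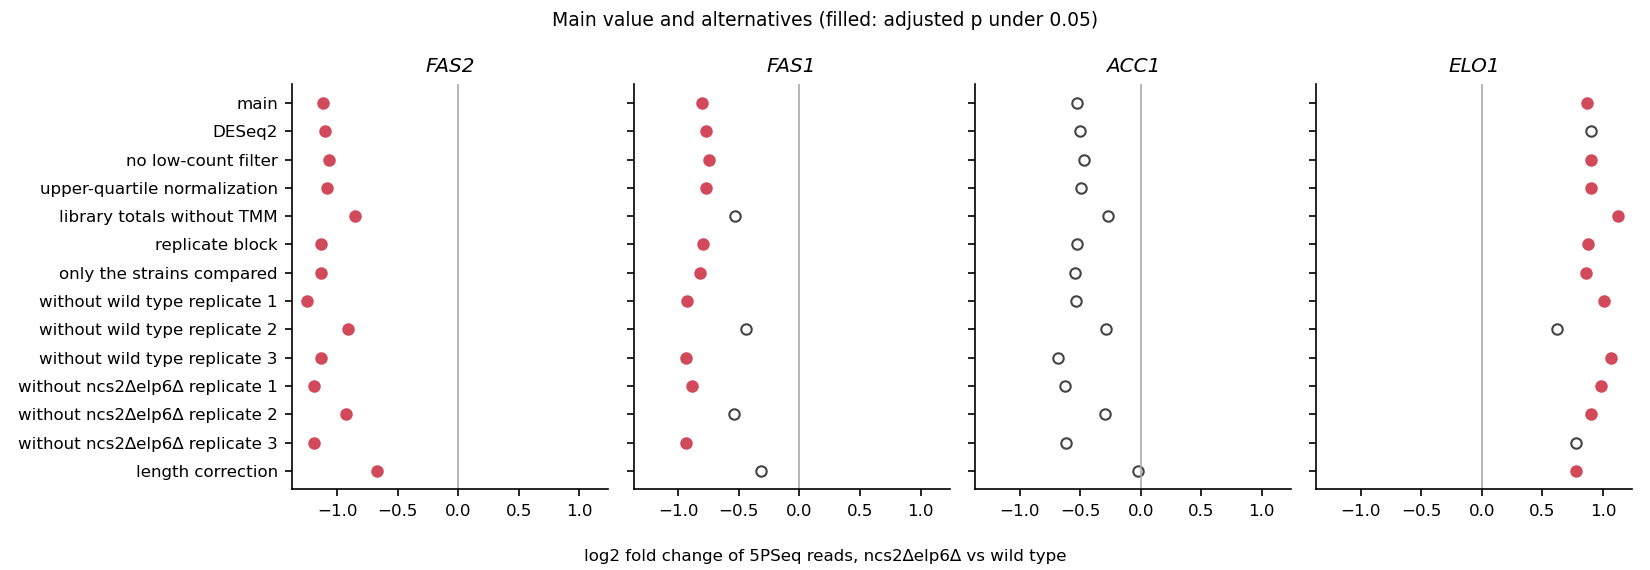
Log2 fold change in *ncs2*∆*elp6*∆ against the wild type for *FAS2*, *FAS1*, *ACC1* and *ELO1* (panels) as reported (main) and in 13 alternative analyses (rows), with filled points for an adjusted p under 0.05. *FAS2* stays between −1.25 and −0.67 and is filled throughout, *FAS1* and *ELO1* are filled in 9 and 10 of the 13 alternatives, and *ACC1* in none.

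Another 61 genes of fatty acid metabolism, in 8 lists by role, were read from the same fit, and 38 of them passed the filter. In *ncs2*∆*elp6*∆ against the wild type 3 of the 38 rose and 6 fell, beside 13.4% and 16.7% of all genes, with a median of −0.20. In the triple mutant 6 fell and none rose against the wild type, where 11.1% of all genes were called and 43.9% of those calls were higher. Against *hel2*∆ 5 fell and 1 rose, beside 14.6% of all genes called, 6.42% higher. Against *ncs2*∆*elp6*∆ 1 rose, beside 5.68% of all genes called. In *hel2*∆ against the wild type none was called by edgeR and 1 had an unadjusted p under 0.05, beside 141 of all 3378 genes.

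Reads of the genes next to the set in the pathway moved both ways in *ncs2*∆*elp6*∆ against the wild type. *ELO2*, the elongase of very-long-chain fatty acids, rose from 61.6 to 99.8 CPM in the wild-type libraries to 163 to 195 CPM, a log2 fold change of 1.07 ± 0.28 (adjusted p = 0.00461). Both tested genes of the list of other acyl-CoA synthetases and import, *FAT1*, a fatty acid transporter and very-long-chain acyl-CoA synthetase, and *FAA3*, fell by 1.89 ± 0.27 and 0.78 ± 0.26 on the log2 scale (adjusted p = 7.08e-06 and 0.0251). *FAT1* went from 411 to 459 CPM in the wild-type libraries to 75.6 to 138 CPM, with no overlap. The fall of *FAA3* was called in 5 of 13 alternatives, and was lost without wild-type replicate 1 or 3 or *ncs2*∆*elp6*∆ replicate 2 or 3 (adjusted p = 0.0610 to 0.162). That call was also lost with DESeq2 (adjusted p = 0.135), with no count filter (0.0555) and with library totals alone (0.126). With the trend on length taken out the value was −0.66 (adjusted p = 0.0597). *FAT1* and *FAA3* were also lower in the triple mutant, against the wild type (log2 fold change −1.01 ± 0.26 and −1.06 ± 0.28, adjusted p = 0.0113 and 0.0136) and against *hel2*∆ (−0.94 ± 0.26 and −1.12 ± 0.28, adjusted p = 0.0193 and 0.0101). Without triple-mutant replicate 2, the deepest library, these 4 values kept their sign but were not called (adjusted p = 0.0583 to 0.177). Without wild-type replicate 1 (*FAA3*) or 3 (*FAT1*), or *hel2*∆ replicate 1 or 2 (*FAT1*), a call was lost as well (adjusted p = 0.0533 to 0.0807).

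Of the genes that break down or store fatty acids, *POT1*, the thiolase of peroxisomal beta-oxidation, had the most reads. It had 7926 to 11643 CPM in wild-type libraries and 9628 to 12649 CPM in those of *hel2*∆. The range was 2023 to 3220 CPM for *ncs2*∆*elp6*∆ and 3968 to 8406 CPM for the triple mutant. It fell by 1.95 ± 0.31 on the log2 scale in *ncs2*∆*elp6*∆ against the wild type (adjusted p = 3.60e-05) and was higher in the triple mutant than in *ncs2*∆*elp6*∆ by 1.36 ± 0.31 (adjusted p = 0.00886). The latter was not called without *ncs2*∆*elp6*∆ replicate 1 or 2 or triple-mutant replicate 3 (1.16 to 1.29, adjusted p = 0.0540 to 0.0875). Its interaction value of 1.16 ± 0.43 was not called (adjusted p = 0.306). The other 3 tested genes of the list were not called in any comparison. *POX1*, *FOX2*, *ECI1* and *SPS19*, other enzymes of the list, had 6, 10, 0 and 12 reads over the 3 wild-type libraries, against 4843 for *POT1*. They did not pass the filter and are named here although their values had been seen. Why *POT1* stood so far above them was not tested. *PAH1*, the phosphatidate phosphatase, and *LRO1*, an acyltransferase of triacylglycerol synthesis, fell by 1.70 ± 0.29 and 1.49 ± 0.28 in *ncs2*∆*elp6*∆ against the wild type (adjusted p = 7.25e-05 and 2.50e-04). *LCB1*, a subunit of serine palmitoyltransferase, which uses palmitoyl-CoA to start sphingolipid synthesis, rose by 1.13 ± 0.26 (adjusted p = 0.00176). *LCB2*, the gene of its partner subunit, was called only in the triple mutant against *hel2*∆ (1.08 ± 0.36, adjusted p = 0.0465, called in 6 of 13 alternatives). *LRO1* also fell in that comparison (−0.85 ± 0.28, adjusted p = 0.0447, called in 6 of 13). Without triple-mutant replicate 2 these values were 0.51 and −0.58 (adjusted p = 0.510 and 0.298), and without any 1 of the *hel2*∆ libraries neither was called.

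Of 10 tested regulators, *OPI1*, the repressor of phospholipid genes, rose in *ncs2*∆*elp6*∆ by 1.23 ± 0.30 on the log2 scale (adjusted p = 0.00305), and *REG1*, a regulatory subunit of protein phosphatase 1 that acts on the kinase Snf1, fell by 1.60 ± 0.24 (adjusted p = 1.17e-05). *REG1* was lower in the triple mutant too, by a log2 fold change of −0.96 ± 0.23 against the wild type and −0.94 ± 0.23 against *hel2*∆ (adjusted p = 0.00825 and 0.00994). Neither was called without triple-mutant replicate 2 (adjusted p = 0.0700 and 0.0755), nor the latter without *hel2*∆ replicate 1 (adjusted p = 0.0674). *MGA2*, a membrane-bound activator of *OLE1*, was called lower in the triple mutant against the wild type (−0.63 ± 0.21, adjusted p = 0.0490) but in none of 13 alternatives. In mitochondrial fatty acid synthesis, *CEM1*, the ketoacyl synthase, fell in the triple mutant against the wild type by 1.76 ± 0.49 (adjusted p = 0.0203, called in 8 of 12 alternatives) and against *hel2*∆ from a mean of 44.8 to 18.5 CPM (adjusted p = 0.0495, called in 4 of 12). Without triple-mutant replicate 2 the *CEM1* values were −1.44 and −1.20 (adjusted p = 0.198 and 0.303). The first was also lost without wild-type replicate 2 or 3, and the second without any 1 of the *hel2*∆ libraries or triple-mutant replicate 1. On the list of acetyl-CoA supply, cofactor attachment and related enzymes, the 3 tested genes were *ACS2*, an acetyl-CoA synthetase, *HFA1*, the mitochondrial acetyl-CoA carboxylase, and *NCP1*, the NADPH-cytochrome P450 reductase, which are named here although their values had been seen. None was called by edgeR in any comparison, and none had an unadjusted p under 0.05. Over all 3378 genes, 141 (*hel2*∆ against the wild type) to 1375 (*ncs2*∆*elp6*∆ against the wild type) had such a p. No gene of the original 10 is on the lists of RQC targets or of RQC-refractory transcripts that the study drew up. These lists hold 325 genes, beside 6302 genes in the counts used here, so that their absence among 10 genes says little.

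**Figure D5:**
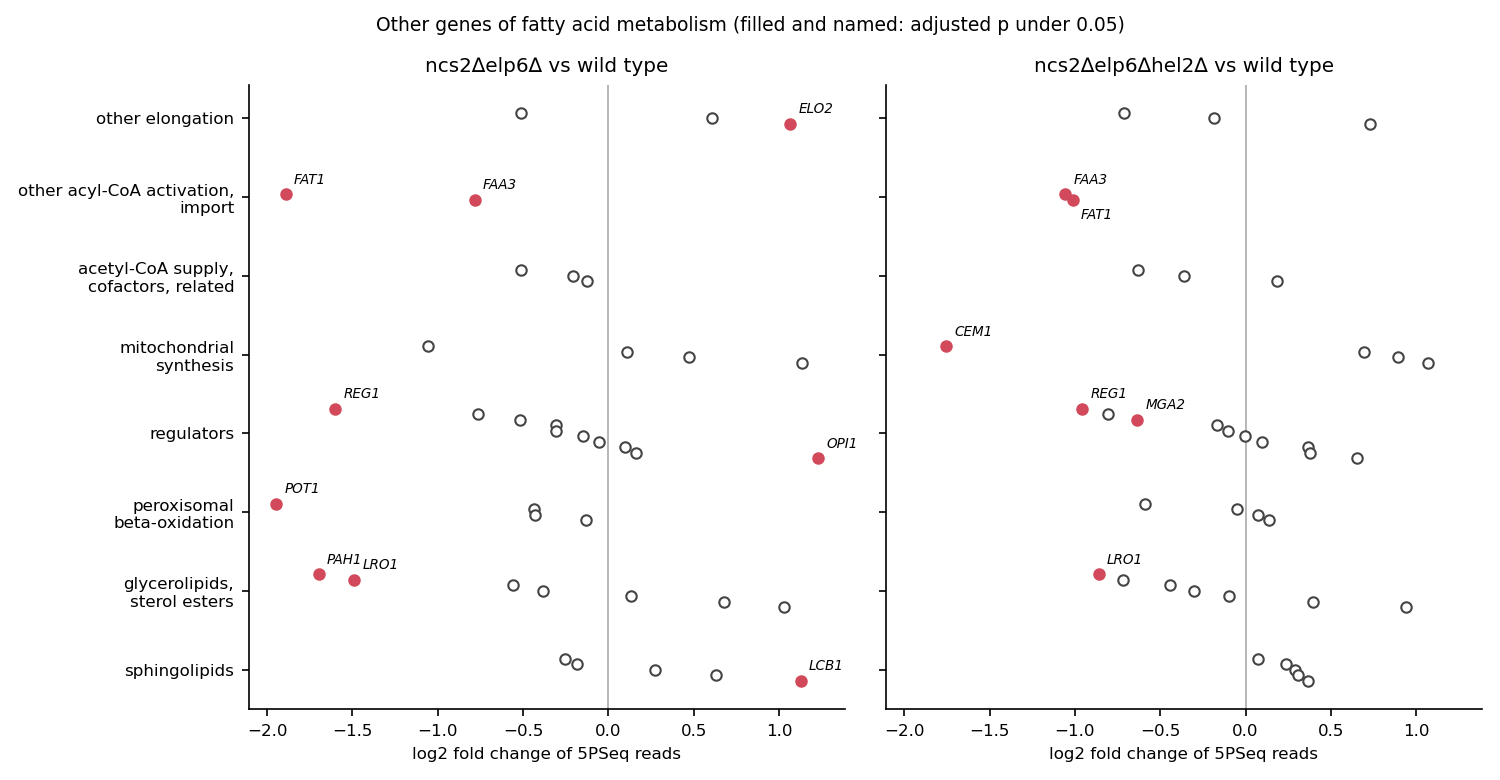
Log2 fold change of 5PSeq reads of 38 other genes of fatty acid metabolism, in rows by list, for *ncs2*∆*elp6*∆ and the triple mutant against the wild type, with filled and named points for an adjusted p under 0.05. In *ncs2*∆*elp6*∆ 6 genes, *POT1* and *FAT1* with the largest falls, lie to the left and *ELO2*, *LCB1* and *OPI1* to the right.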

How the data were processed

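Total RNA of 12 samples, 3 replicates of each of 4 strains, was measured by 5PSeq. The authors deposited unnormalized read counts for each open reading frame. Per the labels, adapters were trimmed with cutadapt, reads were mapped with STAR 2.5.3a and Bowtie 1.2.3 to sacCer3, and duplicates were removed with UMI-tools. The study fitted 5PSeq together with RNA-seq in DESeq2. RNA-seq is not used here.

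The test was edgeR 4.0.16 under R 4.3.3 (glmQLFit, TMM, filterByExpr with a minimum count of 10, strain as the only factor, all 12 libraries in one fit, common dispersion 0.0337), with Benjamini-Hochberg adjustment over 3378 genes in each of 6 comparisons. Standard errors were derived from F statistics. Positions and lengths are from the RefSeq annotation of assembly R64 (sacCer3), matched by locus tag for 5772 genes. In simulated counts of *ncs2*∆*elp6*∆ against the wild type (3208 genes), 40 of 71 genes changed 2-fold, 58 of 62 changed 3-fold and 14 of 3015 unchanged genes were called. The simulation drew 200 changed genes and had no trend on gene length, so these rates need not hold for the measured libraries.

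The genes and the lists were chosen with earlier results of these data known. All 10 genes and the deleted genes were named, and from each other list at most 3 genes per comparison, with the largest change among those called whose CPM did not overlap between strains. Alternatives were DESeq2 1.42.0, no count filter, upper-quartile factors, library totals, a replicate block, a fit of only the strains compared, each library left out, and a length correction (loess, span 0.75) added after the data were examined.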

Additional observations from a re-analysis of the deposited data

How the results depend on the processing

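No called value given above changed direction in any alternative. For *ncs2*∆*elp6*∆ against the wild type, 2 to 4 genes of the set were called when 1 library was left out, and 3 with the replicate block. For the triple mutant against the wild type, where none was called, DESeq2 called 1 (*FAS2*), and leaving out 1 library gave 0 to 1. Against *hel2*∆, where 1 was called, the fit of only the strains compared called 2 (*FAS2* and *ELO1*), and leaving out 1 library gave 1 to 2. The replicate block changed no other call of the set. Same-numbered replicates were not taken as pairs. The correlation of their deviations from the strain means ran from −0.22 to 0.27. Between *ncs2*∆*elp6*∆ and the triple mutant it was 0.08, 0.27 and 0.22 for replicates 1 to 3. Replicates of different number were not compared, so these values do not settle whether the samples are paired. Scaling by library totals alone moved the median log2 fold change of all genes in *ncs2*∆*elp6*∆ against the wild type from 0.04 to 0.29, and the share of calls that were higher from 44.6% to 62.9%. The share went from 43.9% to 62.9% in the triple mutant against the wild type and from 44.1% to 65.9% against *hel2*∆. Calls over all genes were sensitive to single libraries, with 38 to 399 in place of 192 for the triple mutant against *ncs2*∆*elp6*∆ (311 with no filter, 126 with only the strains compared), 145 to 501 in place of 374 against the wild type, 129 to 650 in place of 492 against *hel2*∆, and 1 to 92 in place of 1 for the interaction (46 with DESeq2, 26 with no filter). *hel2*∆ against the wild type gave 1 to 3 in place of 3. The causes were not tested. Depth limited *PHS1*, *ACB1* and *TSC13*, with as few as 1 read in a library.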
